A study of Mus musculus with 20 samples.

Results

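The miR-34 and miR-449 family was followed in liver small RNA profiles of PiZ and wild-type (WT) mice. Its members were taken by name: every row for miR-34a, miR-34b, miR-34c, miR-449a, miR-449b or miR-449c, with either arm, also inside joined names. The rule found 9 rows of the 1509 miRNA names listed in all, and no joined name (the prefix mmu-, for mouse, is mostly left out). Of these, 8 were listed for every mouse, and miR-449c-5p was listed for 5 mice only, at 0 reads. The PiZ transgene encodes human alpha-1 antitrypsin in its Z form, which misfolds and builds up in the endoplasmic reticulum of hepatocytes while little of it is secreted. The groups were 5 PiZ mice and 5 WT mice, all C57BL/6 and 6 weeks old, with 1 library of liver RNA per mouse, each sequenced in 2 technical runs. Neither sex nor litter, nor the promoter and copy number of the transgene, is given in the labels. The comparison asks how the liver miRNA profile of PiZ mice differs from that of WT mice.

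miRNAs of this family share a seed, the bases near the 5′ end that pair with target mRNAs, and are known to hold back the cell cycle through targets such as cyclins, CDKs and E2F factors. miR-34a is made from a gene of its own, while miR-34b and miR-34c come from 1 shared transcript. Transcription of both loci is known to respond to p53, and that of miR-34b and miR-34c also to FOXO3. miR-34b, miR-34c and the miR-449 cluster are best known from multiciliated epithelia and testis, and miR-34a is the member usually studied in liver.

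The mature sequences show why the members are counted as a family and where the 3p arms of its paired hairpins differ. They are from RefSeq (GRCm38.p6), which matched 7 of the 9 rows, and capitals mark the seed, bases 2 to 8. The rows without a match were miR-34c-5p and miR-449b, so their sequences, and how alike they are, are not shown. The 5p arms printed first share the seed GGCAGUG, which 4 of 1738 mature mouse entries in the table carry, all of them in the family.
miR-34a-5p: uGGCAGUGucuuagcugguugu
miR-34b-5p: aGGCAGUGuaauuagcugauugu
miR-449a-5p: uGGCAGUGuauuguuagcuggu
miR-449c-5p: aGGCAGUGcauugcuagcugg
The 3p arms of miR-34b and miR-34c carry another seed, AUCACUA, which these 2 entries alone have in the table.
miR-34b-3p: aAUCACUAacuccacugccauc
miR-34c-3p: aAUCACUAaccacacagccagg
These 3p arms are identical at 17 of 22 positions and differ by U11C, C12A, U16A, U21G and C22G, with miR-34b-3p first and positions counted from 1 at the 5′ end. Without gaps, miR-34a-5p matches miR-449a-5p at 15 of 22 positions and miR-34b-5p at 11 of 22.

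The Mir34b hairpin is shown because reads from both of its arms were counted. It lies at chr9:51103562-51103645 on the minus strand of GRCm38, and capitals mark the 5p arm and then the 3p arm.
Mir34b: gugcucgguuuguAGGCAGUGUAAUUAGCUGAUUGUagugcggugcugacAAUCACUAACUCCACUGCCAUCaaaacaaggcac
Mir34b and Mir34c lie 451 bases apart in an intron of Btg4, on the strand opposite to it. Mir449a, Mir449b and Mir449c lie in an intron of Cdc20b, on its strand, with 35 bases between Mir449b and Mir449a. Mir34a, with miR-34a-5p at chr4:150068473-150068494 on the plus strand, lies within no other annotated gene.

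Library totals ran from 1307857 to 10780801 reads. The deposited files hold 2 feature lists: a longer one of 1399 miRNAs (files of PiZ mice 1 and 2 and of WT mice 1 to 3) and a shorter one of 990 (files of PiZ mice 3 to 5 and of WT mice 4 and 5). The labels do not say what the lists stand for. Libraries with longer-list files had 1307857 to 2507519 reads, and those with shorter-list files had 7043905 to 10780801. Depth and file set therefore cannot be told apart. Levels are in CPM, reads counted per 1000000, with TMM-scaled library sizes. A single read was worth between 0.0888 CPM (PiZ mouse 4) and 0.71 CPM (WT mouse 1), so low levels are coarser in the shallow libraries. On the first principal component of all tested miRNAs (61.9% of the variance), PiZ mice 1 to 4 lay between 11.5 and 18.9, PiZ mouse 5 at -3.54, and the WT mice between -16.6 and -6.18. PiZ mouse 5 therefore stood nearer to the WT mice than to the other PiZ mice. On the second component (15.6%), WT mice 1 and 3 lay at 10.8 and 8.05, and the other WT mice between -7.42 and -5.61. PiZ mouse 5 had 9775091 reads.

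Both arms of miR-34c and both arms of miR-34b rose in PiZ livers, by 67.4-fold to 144-fold over WT livers. miR-449b also rose and was close to its detection limit in WT livers, while miR-34a-5p did not pass the test. miR-34c-5p was the most abundant member in every PiZ liver. The rise was large in 4 PiZ mice. In PiZ mouse 5 it was small for miR-34c-5p, miR-34b-5p and miR-449b, while miR-34b-3p and miR-34c-3p lay within the WT range. No member was called in the shorter-list files alone or with WT mice 1 and 3 left out.

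mmu-miR-34c-5p stood at 3427, 3398, 5412, 3941 and 95.8 CPM in PiZ mice 1 to 5, and at 19.2, 14.6, 17.4, 38.8 and 20.4 CPM in WT mice 1 to 5. Every PiZ mouse lay above every WT mouse, PiZ mouse 5 by the least. The means were 3255 ± 1946 CPM in PiZ and 22.1 ± 9.61 CPM in WT (SD, n = 5 each). The log2 fold change was 7.17 (SE 0.90, 95% interval 5.18 to 9.16), or 144-fold, with an adjusted p of 0.00121 (edgeR quasi-likelihood F-test, Benjamini-Hochberg over 336 miRNAs). Among the 880 miRNAs common to all files, miR-34c-5p ranked 25, 28, 18, 22 and 113 by level in PiZ mice 1 to 5, and between 150 and 184 in WT mice. In bulk liver, a change in the number of cells that make a miRNA and a change in the amount per cell cannot be told apart.

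mmu-miR-34b-5p, the 5p arm of the neighbouring hairpin, stood at 197, 138, 193, 128 and 4.43 CPM in PiZ mice 1 to 5, and at 0, 0.522, 0, 1.37 and 1.41 CPM in WT mice 1 to 5. Again every PiZ mouse lay above every WT mouse, and WT mice had between 0 and 13 reads. The means were 132 ± 77.9 CPM in PiZ and 0.66 ± 0.698 CPM in WT (SD, n = 5 each), a log2 fold change of 7.07 (SE 1.01, adjusted p = 0.00251, edgeR). The 95% interval of that difference was 4.85 to 9.29.

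mmu-miR-34b-3p stood at 49.1, 40.6, 97.2, 56.3 and 0.838 CPM in PiZ mice 1 to 5, and at 0, 0, 1.68, 0.303 and 0.326 CPM in WT mice 1 to 5. PiZ mice 1 to 4 lay above every WT mouse, and PiZ mouse 5, with 7 reads, lay within the WT range. WT livers held 8 reads of it in all. The log2 fold change was 6.85 (SE 1.20, 95% interval 4.22 to 9.48, adjusted p = 0.00495, edgeR).

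mmu-miR-34c-3p stood at 22.5, 9.86, 58.5, 37.8 and 0.479 CPM in PiZ mice 1 to 5, and at 0, 0, 0.56, 0.91 and 0.109 CPM in WT mice 1 to 5. The pattern was that of miR-34b-3p: PiZ mice 1 to 4 above every WT mouse, and PiZ mouse 5, with 4 reads, inside the WT range. WT livers again held 8 reads. The log2 fold change was 6.08 (SE 1.23, 95% interval 3.36 to 8.79, adjusted p = 0.0153, edgeR), and this call was lost in 14 of 35 alternative settings.

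mmu-miR-449b, from the Cdc20b intron, stood at 9.01, 10.2, 13.5, 8.17 and 1.2 CPM in PiZ mice 1 to 5. In WT mice it was at 0.303 CPM in mouse 4, from 2 reads, and at 0 reads in the others. All 5 PiZ mice lay above all WT mice, with 22, 26, 135, 92 and 10 reads in PiZ mice 1 to 5. PiZ livers held 285 reads and WT livers 2, a ratio of totals of 86.2 scaled for depth (95% counting interval 23.6 to 715), with an adjusted p of 0.00304 (edgeR). The counting interval leaves out the spread between mice.

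miR-449a-5p, from the same intron, was too low to be tested. It had 1, 2, 10, 9 and 2 reads in PiZ mice 1 to 5 and 0, 3, 0, 4 and 0 reads in WT mice 1 to 5. The ratio of totals, 2.07 with a counting interval of 0.867 to 5.7, includes equality. miR-449c-5p had 0 reads in the 5 mice whose files listed it, where 3 reads, the limit that a count of 0 allows, correspond to 1.18 to 2.13 CPM.

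mmu-miR-34a-5p, from a gene of its own, stood at 29.9, 21.3, 26.2, 56.6 and 20.5 CPM in PiZ mice 1 to 5, and at 25.6, 16.2, 34.7, 20 and 36.3 CPM in WT mice 1 to 5. The groups overlapped, and 1 PiZ mouse lay above all WT mice. The means were 30.9 ± 14.9 CPM in PiZ and 26.6 ± 8.84 CPM in WT (SD, n = 5 each). The log2 fold change was 0.15 (SE 0.35, adjusted p = 0.835, edgeR), and its 95% interval of -0.62 to 0.93 holds both a modest fall and a modest rise. Its sign turned when PiZ mouse 1, PiZ mouse 4 or WT mouse 4 was left out, so no direction is given. miR-34a-3p, the other arm, had 3 reads in PiZ livers, all in mouse 4, and 1 read in WT livers.

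**Figure D1:**
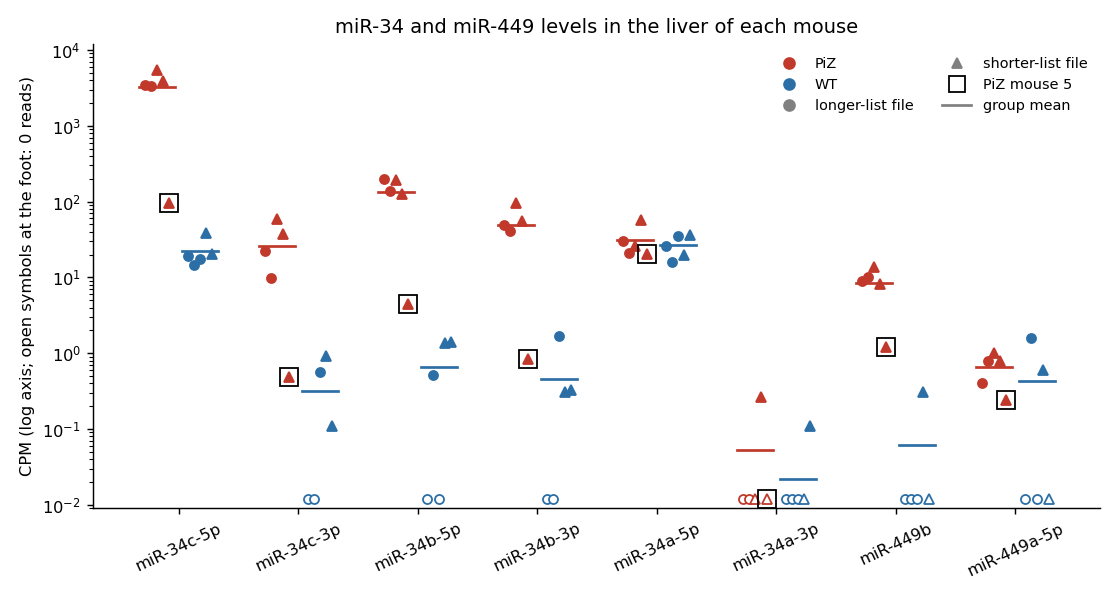
Level of each member in each liver, in CPM on a log axis, with the PiZ mice (red) left of the WT mice (blue), bars at group means, and livers with 0 reads on a line at the foot. For miR-34c-5p the PiZ mice sit between 95.8 and 5412 CPM, all above the WT mice, while the groups overlap for miR-34a-5p.

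In the test over all 336 miRNAs, 28 were called higher in PiZ, or 8.33%, and 3 were called lower, or 0.893%. Of the 9 family rows, 6 passed the filter on low counts, and 5 of these 6 were called higher. miR-34b-5p, miR-34b-3p, miR-34c-3p and miR-449b passed that filter through their PiZ reads, so the count of called members is a description and not independent support. Every PiZ mouse lay above every WT mouse for 3 members (miR-34c-5p, miR-34b-5p and miR-449b) and for 22 of all 336 tested miRNAs, or 6.55%. PiZ mice 1 to 4 lay above every WT mouse for those and for miR-34b-3p and miR-34c-3p, as they did for 50 of 336, or 14.9%. By fold change, miR-34c-5p ranked 2, miR-34b-5p 4, miR-34b-3p 5, miR-449b 7, miR-34c-3p 8 and miR-34a-5p 147 of 336.

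**Figure D2:**
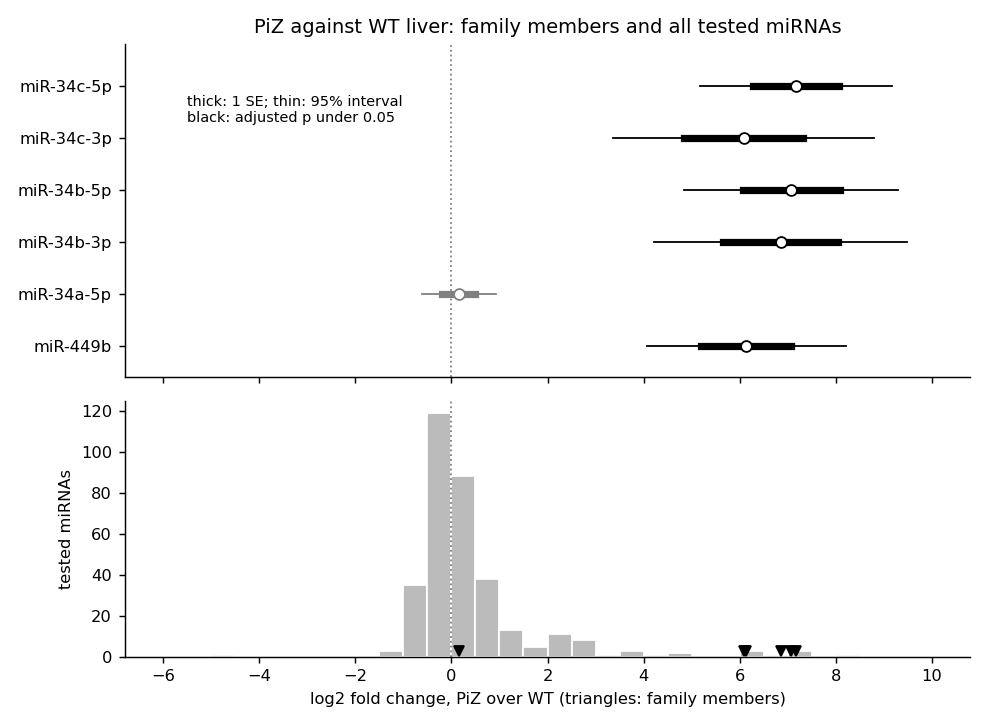
Log2 fold change (PiZ over WT) of the 6 tested members with 95% intervals, set against the fold changes of all 336 tested miRNAs. The 5 called members lie between 6.08 and 7.17, far from the centre of all tested miRNAs at 0.06, and miR-34a-5p lies at 0.15; the fitted value of miR-449b rests on 2 WT reads.

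PiZ mouse 5 lay below the other PiZ mice for every tested member, but by unequal amounts. The median of PiZ mice 1 to 4 was 38.4 times its level for miR-34c-5p and 37.4 times for miR-34b-5p. For miR-34b-3p and miR-34c-3p the ratios were 62.9 and 63, on few reads. For miR-449b the ratio was 8.05, and for miR-34a-5p it was 1.37. Even so, miR-34c-5p in PiZ mouse 5 was at 2.47 times the highest WT mouse, miR-34b-5p at 3.14 times and miR-449b at 3.95 times. Among PiZ mice 1 to 4 the highest level of miR-34c-5p was 1.59 times the lowest, that of miR-34b-5p 1.54 times and that of miR-34c-3p 5.93 times. The technical runs lay much closer together than the mice: PiZ mouse 5 gave 394 and 407 reads of miR-34c-5p, and PiZ mouse 3 gave 26911 and 27125. Over 59 pairs of a member and a mouse, none had a p under 0.05 between its runs in an exact binomial test, and the 23 pairs with at least 100 reads had run ratios of 0.911 to 1.16.

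With the family summed, PiZ mice 1 to 5 stood at 3734, 3619, 5802, 4229 and 123 CPM, against 44.7, 32.9, 54.4, 62.3 and 58.6 CPM in WT mice 1 to 5. The make-up of the family changed with its level. miR-34c-5p gave 91.8%, 93.9%, 93.3%, 93.2% and 77.6% of the family reads in PiZ mice 1 to 5, and 32% to 62.3% in WT mice. miR-34a-5p gave 0.452% to 1.34% in PiZ mice 1 to 4, but 16.6% in PiZ mouse 5, and 32.1% to 63.9% in WT mice. In WT livers these members were the main ones and overlapped in level; the other members averaged under 1 CPM there and were not distinct from each other. In all 5 PiZ livers miR-34c-5p came first by level; miR-34b-5p came next in PiZ mice 1 to 4, and miR-34a-5p in PiZ mouse 5. The order of miR-34b-3p, miR-34a-5p, miR-34c-3p and miR-449b below them differed between mice.

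**Figure D3:**
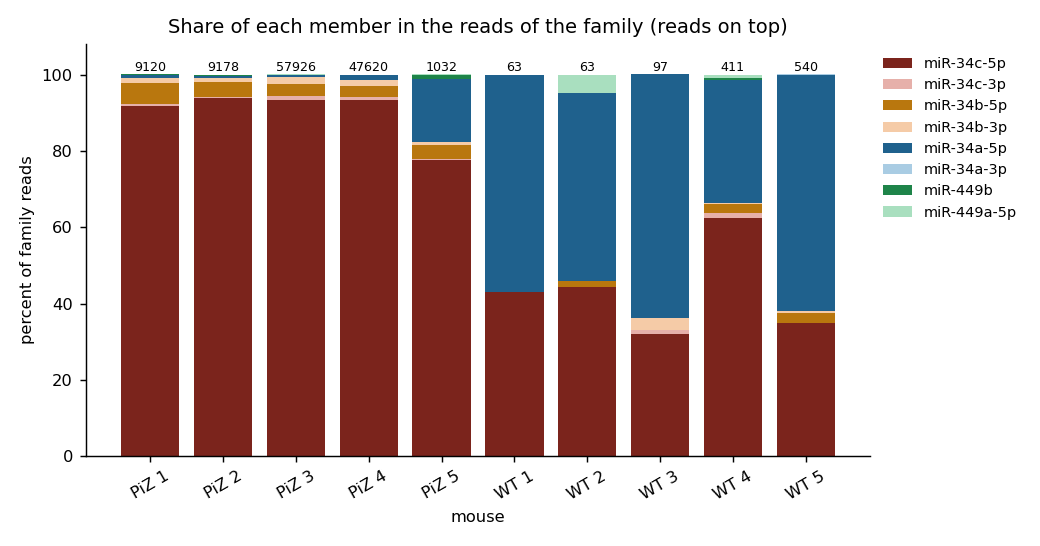
Share of the family's reads held by each member in each liver, in percent, with PiZ mice left of WT mice. miR-34c-5p holds 91.8% to 93.9% in PiZ mice 1 to 4 and has its lowest PiZ share, 77.6%, in mouse 5, while in WT mice it shares most of the reads with miR-34a-5p.

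The balance between miR-34c-5p and miR-34b-5p could be compared between genotypes only where WT livers held enough reads. miR-34c-5p reads were 17.4, 24.6, 28, 30.9 and 21.6 times those of miR-34b-5p in PiZ mice 1 to 5. In WT mouse 4 the ratio was 28.4 (95% exact counting interval 14.8 to 62.9) and in WT mouse 5 it was 14.5 (8.25 to 27.7). The interval in PiZ mouse 5 (15.6 to 31) overlapped those of both WT mice, although PiZ mouse 1 (15.9 to 19.1) lay below PiZ mice 2 to 4. Within hairpins, the 5p arm led in every PiZ liver. The miR-34b arm ratio (5p over 3p) was 4.01, 3.4, 1.99, 2.27 and 5.29 in PiZ mice 1 to 5, and that of miR-34c was 152, 345, 92.5, 104 and 200. PiZ mice 1 and 2, from the longer-list files, had higher arm ratios than PiZ mice 3 and 4, from the shorter-list files, with intervals that do not overlap. PiZ mouse 5, also from a shorter-list file, had wide intervals of 2.33 to 14.1 for miR-34b and 77.9 to 737 for miR-34c. The part of the file set, or of the depth that goes with it, in these ratios was not tested. miR-449b had 2.63, 3.02, 2.5 and 2.07 reads per 1000 of miR-34c-5p in PiZ mice 1 to 4, whereas PiZ mouse 5 had 12.5 (5.96 to 23.1). In WT mouse 4 the same ratio was 7.81 (0.941 to 28.5).

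**Figure D4:**
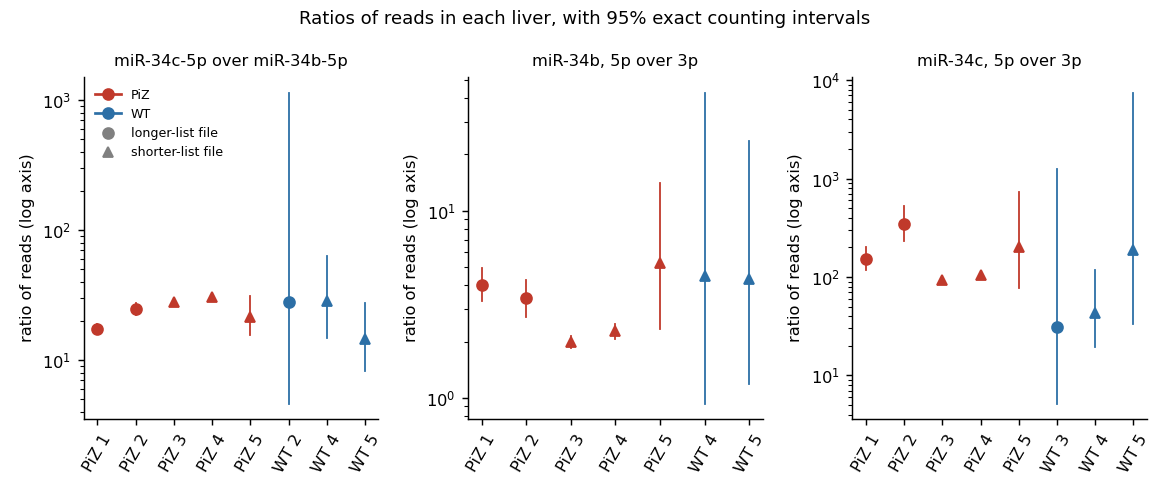
Ratios of reads in each liver on log axes, with 95% exact counting intervals; circles are longer-list and triangles shorter-list files, and WT livers with 0 reads of either miRNA have no point. PiZ mice 1 and 2 lie above PiZ mice 3 and 4 in both arm ratios.

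A difference in the rise between the file sets was tested directly, with wide intervals. The interaction was called for 0 of 372 tested miRNAs (0%) with edgeR, where 16 had an unadjusted p under 0.05, and for no member with DESeq2. For miR-34c-5p the log2 fold change in the shorter-list files minus that in the longer-list files was -0.96 (95% interval -4.29 to 2.37, adjusted p = 0.91, edgeR). Within the longer-list files the log2 fold change of miR-34c-5p was 7.64 (adjusted p = 9.26e-06, edgeR), and within the shorter-list files, which include PiZ mouse 5, it was 6.75 (adjusted p = 0.317, edgeR). In the longer-list files alone the 5 members passed again, among 22 of 277 tested miRNAs (7.94%). In the shorter-list files alone edgeR called 0 of 394 miRNAs and so no member, with 54 miRNAs and 5 members at an unadjusted p under 0.05. With WT mice 1 and 3 left out, edgeR called 0 of 410 miRNAs, with 104 miRNAs and 5 members at an unadjusted p under 0.05. There the lowest adjusted p of a member was 0.0623 with the filter rebuilt and 0.0578 with the tested miRNAs held, where 1 of 336 miRNAs (0.298%) was called and no member. The loss of calls in those settings was thus not limited to the family. With PiZ mouse 5 and WT mice 1 and 3 all left out, the 5 members passed with an adjusted p of at most 0.000887 (edgeR), and so did 100 of 390 miRNAs in all (25.6%), or 82 of 336 (24.4%) with the tested miRNAs held.

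Of the 330 tested miRNAs outside the family, those whose levels ran most like miR-34c-5p were miR-216b-5p, miR-708-5p, miR-708-3p, miR-6364 and miR-217-5p. Likeness was the root mean square difference of log2 CPM, each miRNA centred on its mean over the 10 mice. The difference was 1.03 for miR-216b-5p, 1.37 for miR-708-5p, 1.48 for miR-708-3p, 1.5 for miR-6364 and 1.83 for miR-217-5p, against a median of 3.6. Within the family it was 0.649 for miR-34b-5p, 0.92 for miR-34b-3p, 1.15 for miR-34c-3p, 1.4 for miR-449b and 3.48 for miR-34a-5p. By Spearman's rank correlation in place of this measure they ranked 3, 2, 8, 5 and 13 of 330, in the order named, with ties at the fifth place. Since they were chosen for this pattern, their levels are a description. miR-6364 averaged 51.4 ± 24.1 CPM in PiZ and 2.1 ± 0.725 CPM in WT (SD, n = 5 each), and miR-708-3p 13.4 ± 6.98 CPM in PiZ and 0.381 ± 0.262 CPM in WT. miR-216b-5p had 646 reads in PiZ and 1 in WT, miR-708-5p 374 in PiZ and 1 in WT, and miR-217-5p 183 in PiZ and 1 in WT. In PiZ mouse 5 they too were low, at 1.32 CPM for miR-216b-5p, 0.479 for miR-708-5p, 1.2 for miR-708-3p, 15.1 for miR-6364 and 0 for miR-217-5p.

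**Figure D5:**
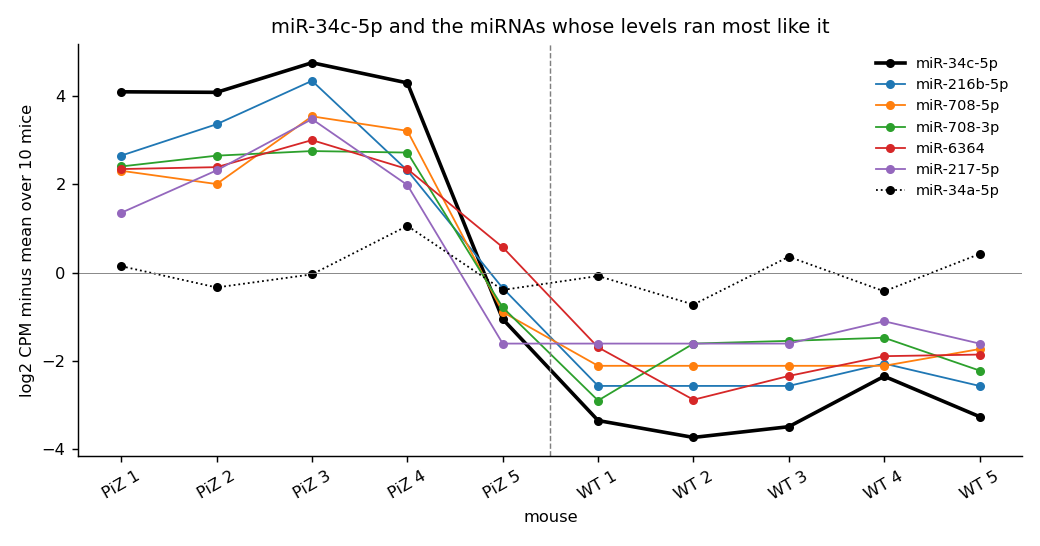
Centred log2 CPM of miR-34c-5p and of the 5 most similar miRNAs outside the family in each liver, PiZ mice left of WT mice. miR-34a-5p is drawn as a dotted line for comparison. All the miRNAs but miR-34a-5p are high in PiZ mice 1 to 4 and lower in PiZ mouse 5.

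Lists of miRNAs related by known regulation were read from the same test. Among miRNAs reported to be raised by p53, 16 of the 21 found were tested and 0 passed in edgeR, against 9.23% of all tested miRNAs. At an unadjusted p under 0.05 there were 3, against 83 of all 336 tested miRNAs. These 3 went both ways, with log2 fold changes of -0.45, -0.49 and 0.57 (edgeR). On this list 0 passed in DESeq2 or limma-voom, which called 50 and 7 of all 336. The median log2 fold change of the 16 tested was -0.15, beside 0.06 over all tested. The most abundant of them, miR-22-3p, averaged 426990 CPM in PiZ and 459340 CPM in WT (log2 fold change -0.10, adjusted p = 0.749, edgeR). Of the other precursors reported to be cut by IRE1, the stress sensor of the endoplasmic reticulum that is also reported to cut miR-34a, 0 of 6 tested passed in edgeR, DESeq2 or limma-voom, 0 had an unadjusted p under 0.05, and the median log2 fold change was -0.09. The most abundant, miR-125b-5p, averaged 850 CPM in PiZ and 1083 CPM in WT (log2 fold change -0.30, adjusted p = 0.721, edgeR). Of 4 tested miRNAs of the unfolded protein response, both arms of miR-708 were higher in PiZ. Their adjusted p was 0.00471 for miR-708-5p and 0.00304 for miR-708-3p (edgeR). miR-708 is reported to be induced by the stress factor CHOP. Both arms passed the filter on low counts through their PiZ reads and were named above for running like miR-34c-5p. Their calls are therefore a description and not independent support. On this list DESeq2 called 3 of 4 and limma-voom 0. miR-30c-1-3p was lower in PiZ, at 38.9 CPM against 69.3 CPM in WT (log2 fold change -0.94, SE 0.26, adjusted p = 0.0417, edgeR).

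Since miR-34b, miR-34c and miR-449 are rich in testis, the testis-rich X-linked miRNAs were read too. Their sum was 1.8 to 3.94 CPM in PiZ and 6.67 to 20.6 CPM in WT, the opposite order to that of the family. Of the 18 rows found, only 2 were tested, and 1 was called lower, against 0.893% of all tested miRNAs. This was miR-871-3p, with 2 reads in PiZ and 54 in WT, a ratio of totals of 0.0224 (95% counting interval 0.00265 to 0.0849, adjusted p = 0.00304, edgeR). It passed the filter on low counts through its WT reads, so its call is a description and not independent support. The other, miR-201-5p, averaged 1.86 CPM in PiZ and 2.12 CPM in WT (log2 fold change -0.29, adjusted p = 0.67, edgeR).

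Markers of cell types that a liver sample can hold were summed in each mouse. Biliary markers summed to 179 to 316 CPM in PiZ and 190 to 281 CPM in WT, and 0 of 5 passed. PiZ mice 1 to 4 stood at 291 CPM or more, above every WT mouse, and PiZ mouse 5 had the lowest sum. Pancreas markers summed to 12.2 to 80.9 CPM in PiZ and 5.74 to 17 CPM in WT. Of these, 2 of 4, miR-216b-5p and miR-217-5p, were called higher in PiZ, against 8.33% of all tested miRNAs. miR-216a-5p averaged 5.17 CPM in PiZ and 0.561 CPM in WT (adjusted p = 0.0578, edgeR). miR-375-3p, the most abundant of them in WT, averaged 10.2 CPM in both PiZ and WT (log2 fold change -0.08, SE 0.37, adjusted p = 0.937, edgeR). The pancreas sum was 24.2 CPM or more in PiZ mice 1 to 4 and 12.2 CPM in PiZ mouse 5. Immune markers summed to 1672 to 2634 CPM in PiZ and 625 to 1892 CPM in WT, with 0 of 5 called. Erythroid markers summed to 311 to 1752 CPM in PiZ and 259 to 1071 CPM in WT, with 0 of 4 called. Hepatocyte markers, which check the labelled tissue, summed to 6998 to 11663 CPM in PiZ and 11880 to 14430 CPM in WT, with 0 of 3 called. Endothelial, stellate and smooth muscle sums overlapped between the groups. Muscle markers, none of which passed the filter, summed to 0 to 67.3 CPM in PiZ (median 1.675) and 0 to 2.13 CPM in WT (median 0.76). Each of the 3 found had only 1 PiZ mouse above every WT mouse. Of the markers not called by edgeR, an unadjusted p under 0.05 was reached by 2 biliary, 2 immune, 3 erythroid and 1 hepatocyte marker. It was also reached by 1 stellate and smooth muscle marker and by miR-216a-5p, against 83 of all 336 tested miRNAs. DESeq2 called 0 biliary, 0 stellate and smooth muscle, 1 immune, 1 erythroid and 1 hepatocyte marker, and 3 of 4 pancreas markers. It called 50 of all 336 miRNAs. Of these markers limma-voom called none, and it called 7 of all 336. No marker found was at 0 in all mice. The biliary and pancreas sums were above every WT mouse in PiZ mice 1 to 4, as were 50 of 336 tested miRNAs (14.9%), miR-34c-5p among them. In PiZ mouse 5 the biliary sum, 179 CPM, lay below every WT mouse, and the pancreas sum lay within the WT range. miR-34c-5p, by contrast, lay above every WT mouse in PiZ mouse 5. Taken singly, each biliary marker had either 1 or all 5 PiZ mice above every WT mouse. The pancreas sum holds miR-216b-5p and miR-217-5p, named above because they ran like miR-34c-5p, so its pattern is a description. The part of these cell types in the result was not tested.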

How the data were processed

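Small RNA libraries were made from 1 µg of liver RNA with a TruSeq kit, per the labels' protocols. Each of the 20 deposited tables holds estimated counts by mature miRNA for 1 run, some of them fractional. In the family only run 1 of PiZ mouse 4 held fractional values, 724.5 for miR-34b-5p and 21917.5 for miR-34c-5p. The only tool in the submitters' processing notes is CASAVA. How reads were aligned, to which build and miRBase release, and how reads matching several miRNAs were treated is not stated there, so counts of close sequences in the family may depend on it.

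Both runs of each library were added up and rounded, and the 880 miRNAs common to all files, which held at least 99.999% of each library's reads, were used. filterByExpr kept 336. These were TMM-scaled, and edgeR 4.0.16 gave the test (quasi-likelihood F, terms file set and genotype, Benjamini-Hochberg over all tested, threshold 0.05). Standard errors are the fold change over the square root of F. Alternatives used DESeq2 1.42.0 and limma 3.58.1 in R 4.3.3. Counting intervals (exact binomial, 95%, scipy 1.17.1) cover counting error only, since reads are not independent molecules. Mice are the replicates, taken as separate animals from their numbers in the labels.

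The members, the lists and the rule for naming miRNAs were chosen with earlier results of these data known. The rule names every member, the 5 tested miRNAs outside the family with the smallest difference from miR-34c-5p (prior count 2), and the called members of each list or else its most abundant member; cell type markers are named only where called. miR-201-5p, miR-216a-5p, miR-375-3p and miR-30c-2-3p fall outside this rule: they were added once their values were known. A planned rank by seed group was replaced by ranks of single miRNAs, because the sequence table does not list every member.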

Additional observations from a re-analysis of the deposited data

Results flagged for a closer look

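A gap test within each group of 5 mice (Dixon's, 95% limit 0.71) set apart 1 mouse in 5 of 12 groups of values for the tested family members. It did so in 5 of 10 groups for the miRNAs named as most like miR-34c-5p, which were chosen for their profile over the same mice, so that count is a description only. Chance flags about 1 in 20 groups, and these groups share mice and are not independent. PiZ mouse 5 was far below the other PiZ mice in 6 of all the groups. The gap over the range was 0.884 for miR-34c-5p, 0.884 for miR-34b-5p, 0.803 for miR-34b-3p and 0.777 for miR-449b. It was 0.902 for miR-708-3p and 0.73 for miR-6364. In the WT group the value was 1 for miR-449b, miR-216b-5p and miR-217-5p, with WT mouse 4 highest, and 1 for miR-708-5p, with WT mouse 5 highest. Those values of 1 come from 1 or 2 reads in a single WT mouse while the other WT mice had 0.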

How the results depend on the processing

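Over 35 alternatives the log2 fold change stayed between 6.49 and 7.64 for miR-34c-5p, 6.29 and 9.36 for miR-34b-5p, 5.98 and 7.95 for miR-34b-3p, 5.02 and 7.27 for miR-34c-3p, and 5.13 and 8.53 for miR-449b. The number of members called was 5 in the analysis as reported, 2 with limma-voom, 0 in the shorter-list files alone, and 0 with WT mice 1 and 3 left out, whether the tested miRNAs were held or not (the held setting was chosen after seeing the data); the cause was not tested. Leaving out each mouse in turn gave 4 to 5 members with the tested miRNAs held and 2 to 5 with the filter rebuilt, the 2 arising without WT mouse 4. The log2 fold change of miR-34a-5p turned to -0.0031 in the longer-list files alone. Among the leave-one-out fits it turned to -0.03 and -0.13 without PiZ mouse 1, -0.12 without PiZ mouse 4, and -0.03 and -0.04 without WT mouse 4, and reached 0.31 without PiZ mouse 5. Of 210 fold-change alternatives, 30 lost the call and 7 turned in sign. The count over all tested miRNAs was 31 as reported, 50 with DESeq2, 7 with limma-voom, 83 without the filter and 18 from run 2 alone. It was 0 in the shorter-list files alone, 0 without WT mice 1 and 3 (1 with the tested miRNAs held), and 100 without PiZ mouse 5 and WT mice 1 and 3 (82 held). It ran from 8 to 53 with a mouse left out and the tested miRNAs held, and from 5 to 46 with the filter rebuilt. No paired analysis was possible because the run numbers in the labels mark technical runs and the mouse numbers name different animals. Members under about 3 reads per library cannot be read as absent.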
